A study of Homo sapiens with 6 samples.

Results

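Rab GTPases are small membrane-bound switches of vesicle traffic. DENN-domain proteins load them with GTP, and many TBC-domain proteins speed the hydrolysis of that GTP. Effectors such as the RAB11FIP proteins bind the GTP-loaded form and link the vesicle to motors and tethers. In neurons the family directs the movement of cargo between the endoplasmic reticulum, the Golgi, endosomes and the plasma membrane of axons and dendrites. The genes of this system were taken by symbol from the protein-coding genes of the table. RAB followed by a number and at most 1 letter was taken, without RAB3A, RAB3B, RAB3C and RAB3D. RAB11FIP with 1 digit and TBC1D with a number and at most 1 letter were added. DENND was taken only with 1 digit and a letter from A to D, so DENND symbols of another form are not members. The rule used no measured value and found 115 of 21301 genes, of which 57 encode Rab GTPases, 5 RAB11FIP effectors, 39 TBC1D proteins and 14 DENND proteins.

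RNA was sequenced from SH-SY5Y cells, a human neuroblastoma line often used as a neuronal model, to see which genes depend on PSF, an RNA-binding protein of the nucleus encoded by SFPQ. The cells had been treated for 72 h with siPSF or siControl at 10 nM, with 3 libraries for each siRNA. The knockdown rested on 1 cell line and, per the methods, on a single siRNA against PSF. The paper describes the libraries as biological replicates, and the labels do not name the cultures they came from.

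The libraries held between 101540520 and 132420931 counts. SFPQ fell from 377 ± 23.1 CPM (SD, n = 3) in siControl to 189 ± 22.3 CPM (SD, n = 3) in siPSF, with a log2 fold change of -0.99 and an edgeR adjusted p of 9.5e-05. CPM, the count scaled to a common library size with edgeR's TMM factors, is used to compare the same gene between libraries. FPKM, the authors' scaling by depth and transcript length, is used to compare genes. Of 11 sympathoadrenal marker genes, 10 had a mean of at least 1 FPKM, while TH, the tyrosine hydroxylase gene, was at 0.220 FPKM in siControl and 0.0678 FPKM in siPSF. DBH, ELAVL4 and TH fell and GATA3 rose, and the 11 markers summed to between 1957 and 2104 FPKM in siControl against 1708 to 1904 FPKM in siPSF. Of the mesenchymal markers 2 of 7 reached 1 FPKM, TWIST1 at 118 FPKM and THY1 at 18.2 FPKM in siControl. The 7 summed to between 131 and 145 FPKM in siControl against 115 to 133 FPKM in siPSF. Of these 7, COL3A1 was called lower (log2 fold change -0.71, edgeR adjusted p 0.047) and 0 were called higher. Of 6 glial and 6 blood and endothelial markers 1 each was in the table. The part of these markers in the results below was not tested.

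In siPSF-treated cells the exchange factor gene DENND1A, the effector gene RAB11FIP4 and the GTPase-activating protein gene TBC1D22A fell, with log2 fold changes of -0.89, -0.66 and -0.59. RAB13 and TBC1D17 rose, by 0.65 and 0.45. The most abundant Rab genes, RAB5C, RAB7A, RAB1B and RAB11B, were not called. All 115 members passed the filter on low counts. Their counts ran from 6 to 33969 per library, and 12 members averaged under 1 CPM. In the siPSF libraries 5 members were lower and 6 were higher when called at a Benjamini-Hochberg adjusted p under 0.05 from edgeR's quasi-likelihood fit of 19694 genes. These 11 genes are 9.57% of the members, and 14.9% of all genes tested and 15.3% of protein-coding genes were called. By direction, 4.35% of members were lower against 8.27% of all genes and 8.58% of protein-coding genes, and 5.22% were higher against 6.65% and 6.72%. The siPSF and siControl libraries did not overlap in 38 members, or 33.0%, against 34.4% of all genes and 34.5% of protein-coding genes. The members' median log2 fold change was 0.05, beside 0.01 over all genes. Without siControl replicate 2 the count of called members was 5, without siControl replicate 3 or siPSF replicate 2 it was 6, and without siPSF replicate 3 it was 7. It was 7 when genes of low count were kept in, and the split was 2 higher and 8 lower with limma on log2(FPKM + 0.5). The members were thus called no more often than the background, and what follows describes single genes.

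The genes that fell encode 1 exchange factor, 1 effector, 2 TBC1D proteins and 1 Rab. The genes that rose encode 4 Rabs, 1 TBC1D protein and 1 exchange factor. Of the 11, 5 were also called in the same direction under all 13 other ways of processing: DENND1A, RAB11FIP4 and TBC1D22A, which fell, and RAB13 and TBC1D17, which rose.

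**Figure D1:**
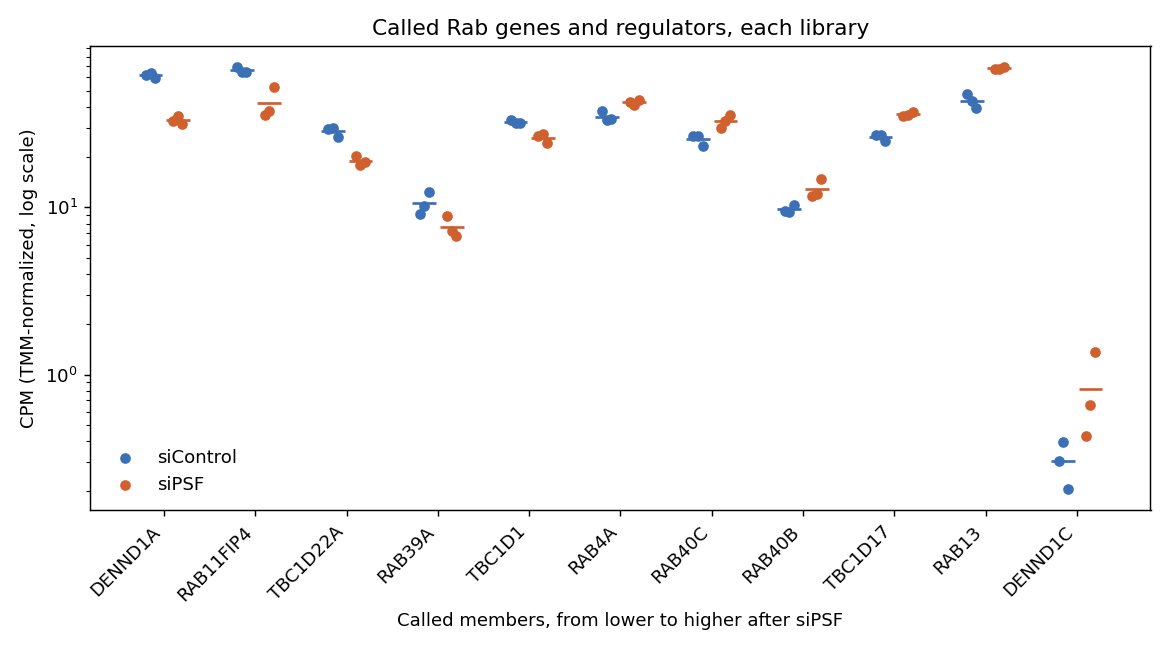
Each point is the TMM-normalized CPM (log axis) of 1 library for the 11 called members, siControl in blue and siPSF in orange, and each line is the mean of 3 libraries. The groups do not overlap in any of the 11, and DENND1C lies under 1 CPM in all libraries but 1.

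DENND1A, also known as connecdenn 1, is an exchange factor for RAB35 that acts at clathrin-coated pits, and its gene spans chr9:123379658-123930126 (GRCh38.p14, minus strand). It measured 61.9, 63.7 and 59.7 CPM in siControl and 33.0, 35.1 and 31.8 CPM in siPSF. All siPSF libraries were far below all siControl libraries, and little spread was seen within either group. Its log2 fold change was -0.89 (standard error 0.09, 95% interval -1.08 to -0.70), with an edgeR adjusted p (Benjamini-Hochberg) of 7.0e-05, which left 53.9% of the siControl level. RAB35 itself, which drives fast endocytic recycling and was looked up after the values were seen, measured 80.5, 83.8 and 81.6 CPM in siControl and 71.9, 76.1 and 69.0 CPM in siPSF. These groups did not overlap either, but the difference did not pass the test (log2 fold change -0.18, edgeR adjusted p 0.15).

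DENND1B, also an exchange factor for RAB35, measured 2.93, 4.26 and 4.74 CPM in siControl and 2.61, 2.77 and 4.12 CPM in siPSF, with overlapping groups (log2 fold change -0.33, edgeR adjusted p 0.33). The log2 ratio of DENND1A to DENND1B changed by -0.56 in siPSF, with a 95% interval of -1.13 to 0.01 and overlapping groups. DENND1C, the remaining gene of the DENND1 group, rose from 0.304, 0.397 and 0.206 CPM to 0.429, 0.654 and 1.36 CPM, at counts of 26 to 134 per library. Its log2 fold change was 1.41 (standard error 0.41, edgeR adjusted p 0.036), with siPSF replicate 3 far above the other two siPSF libraries. Without that library it was 0.83 (adjusted p 0.12), and the call was also lost without siControl replicate 1, 2 or 3 (adjusted p 0.068, 0.067 and 0.15).

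The other exchange factors include DENND4B, the most abundant of them per length at 38.4 ± 1.37 FPKM in siControl, a member of the group that loads RAB10. It measured 224, 228 and 202 CPM in siControl and 211, 227 and 199 CPM in siPSF, and the groups overlapped. DENND5A, a partner of RAB39 and RAB6, measured 83.1, 82.3 and 85.6 CPM against 65.2, 70.7 and 74.9 CPM. All its siPSF libraries were below the siControl libraries, but its log2 fold change of -0.25 did not pass the test (edgeR adjusted p 0.059). Of 14 DENND genes, 1 was lower and 1 higher by the test, beside 8.27% and 6.65% of all genes. A log2 fold change below 0 was seen in 8 of the 14 and in 9541 of all 19694 genes tested.

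RAB11FIP4, an effector that binds RAB11, was the second called gene by size of fall among members of at least 1 CPM. Its gene lies at chr17:31391675-31538211 on the plus strand. It measured 69.2, 65.0 and 64.4 CPM in siControl and 35.8, 37.7 and 52.5 CPM in siPSF. The siPSF libraries were all lower, with replicate 3 nearest to siControl. The log2 fold change was -0.66 (standard error 0.13, 95% interval -0.94 to -0.38, edgeR adjusted p 0.0056). With 1 library left out it ran from -0.85, without siPSF replicate 3, to -0.56, without siPSF replicate 1. Of 5 RAB11FIP genes it was the only one called, and the other 4 had log2 fold changes from -0.06 to -0.01.

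RAB11FIP3, the closest relative of RAB11FIP4 and like it a binder of RAB11 and ARF proteins, measured 43.1, 44.8 and 41.3 CPM in siControl and 39.8, 42.3 and 46.5 CPM in siPSF. The groups overlapped. The log2 ratio of RAB11FIP3 to RAB11FIP4 was -0.68, -0.54 and -0.64 in siControl and 0.15, 0.17 and -0.18 in siPSF. The ratio was higher in each siPSF library, by 0.67 (95% interval 0.32 to 1.01). RAB11A and RAB11B, the small GTPases these effectors serve, were not called: RAB11B measured 106, 113 and 94.5 CPM in siControl and 104, 105 and 116 CPM in siPSF, and RAB11A, named after its values were seen, changed by 0.24 on the log2 scale without passing the test (edgeR adjusted p 0.074).

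Among the Rab GTPases, RAB5C and RAB7A, which mark early and late endosomes, were the most abundant per length at 114 ± 5.79 and 106 ± 4.52 FPKM in siControl (SD, n = 3). Their siControl libraries overlapped, so the order of these neighbours was not resolved. RAB1B, which acts between endoplasmic reticulum and Golgi, was at 81.2 ± 6.67 FPKM and RAB11B, a recycling Rab, at 61.1 ± 4.13 FPKM. RAB10, a Rab of exocytosis, followed at 42.2 ± 5.35 FPKM and RAB13 at 34.5 ± 2.72 FPKM. None of the first 5 was called, and their log2 fold changes lay between -0.02 and 0.05.

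**Figure D2:**
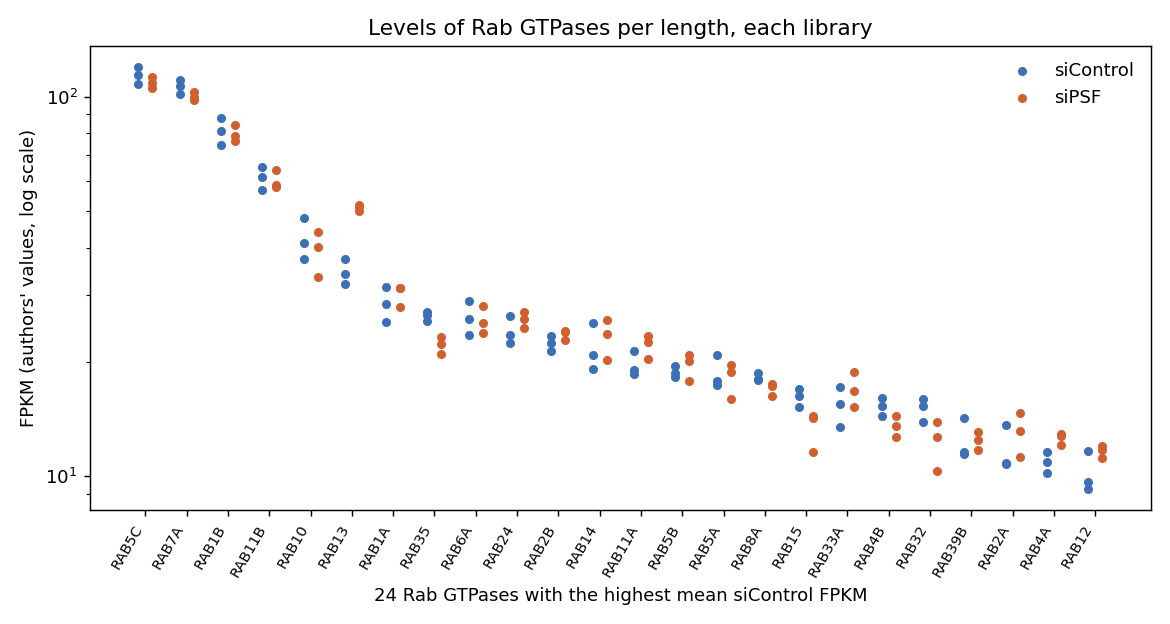
FPKM per library (log axis) of the 24 Rab GTPases with the highest mean in siControl, siControl in blue and siPSF in orange. The points run from RAB5C near 114 FPKM down to about 10 FPKM, and the groups of RAB13 stand clearly apart.

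RAB13, a Rab of cell junctions, recycling and neurite growth, rose. Its gene lies at chr1:153981650-153990708 on the minus strand. It measured 47.5, 43.6 and 39.2 CPM in siControl and 67.6, 67.3 and 69.2 CPM in siPSF. All siPSF libraries were higher and lay close together. The log2 fold change was 0.65 (standard error 0.09, 95% interval 0.45 to 0.85), with an edgeR adjusted p (Benjamini-Hochberg) of 8.0e-04. The summed FPKM of the 57 Rab genes was 833, 849 and 869 in siControl and 858, 831 and 868 in siPSF, with overlapping groups. RAB13 made up 4.49%, 4.02% and 3.68% of that sum in siControl and 5.97%, 6.01% and 5.97% in siPSF. GENCODE lists a protein-coding gene without a symbol on the same strand over 4630 bases of RAB13, and its reads cannot be told apart from those of RAB13 in these counts.

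RAB4A, a Rab of fast recycling from early endosomes, measured 37.7, 33.1 and 34.0 CPM in siControl and 42.8, 41.3 and 43.9 CPM in siPSF. The groups did not overlap, and the log2 fold change was 0.29 (standard error 0.09, edgeR adjusted p 0.049). The call held when siControl replicate 1 was left out, and was lost without each of the other 5 libraries (adjusted p 0.080 to 0.20). Its near relative RAB4B measured 18.2, 20.3 and 18.5 CPM in siControl and 18.7, 17.9 and 16.8 CPM in siPSF, with a log2 fold change of -0.09 and overlapping groups. The log2 ratio of RAB4A to RAB4B was 0.38 higher in siPSF (95% interval 0.04 to 0.73). Of the 14 recycling and exocytosis Rabs, 2 were higher and none was lower by edgeR's test, against 6.65% and 8.27% of all genes. An unadjusted p under 0.05 from that test was found in 5 of the 14. The same limit was passed by 5861 of all 19694 genes tested and by 25 of the 115 members.

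RAB40B and RAB40C are Rabs with a SOCS box that recruit ubiquitin ligases. RAB40B measured 9.49, 9.45 and 10.3 CPM in siControl and 11.7, 11.99 and 14.8 CPM in siPSF. RAB40C measured 26.9, 26.6 and 23.3 CPM in siControl and 30.0, 33.0 and 35.7 CPM in siPSF. In both genes every siPSF library was above every siControl library, and the log2 fold changes were 0.40 and 0.36 (standard error 0.12 and 0.10, edgeR adjusted p 0.046 and 0.033). The call of RAB40B was lost when any 1 of the 6 libraries was left out (adjusted p 0.056 to 0.17), and that of RAB40C was lost without siControl replicate 2 or 3 or siPSF replicate 2 or 3 (0.071 to 0.10). RAB28, a Rab of cilia, measured 18.04, 15.1 and 18.1 CPM in siControl and 18.4, 16.8 and 19.9 CPM in siPSF, with overlapping groups. RAB40C overlaps WFIKKN1 by 34 bases on the same strand, a gene of 0.564 CPM that rose with a log2 fold change of 1.20. The log2 ratio of RAB40B to RAB40C changed by 0.03 (95% interval -0.32 to 0.38).

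RAB39A, a Rab of late endosomes and autophagy, was the only 1 of the 57 Rab genes called lower. It measured 9.16, 10.2 and 12.4 CPM in siControl and 8.84, 7.27 and 6.79 CPM in siPSF. The groups were separated by a small gap, between siControl replicate 1 and siPSF replicate 1. The log2 fold change was -0.47 (standard error 0.15, edgeR adjusted p 0.048), and the call was lost without siControl replicate 2 or 3 or siPSF replicate 2 or 3 (adjusted p 0.080 to 0.17). RAB39B, its relative on the X chromosome that is linked to intellectual disability, measured 42.4, 43.1 and 50.8 CPM in siControl and 50.1, 45.6 and 48.3 CPM in siPSF. RAB24, which is linked to autophagy, measured 47.0, 41.7 and 38.1 CPM in siControl and 49.8, 47.7 and 47.7 CPM in siPSF, without overlap and without passing the test (log2 fold change 0.20, edgeR adjusted p 0.19). The RAB39B groups overlapped, and the log2 ratio of RAB39A to RAB39B was lower by 0.55 in siPSF (difference -0.55, 95% interval -0.89 to -0.22).

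No gene of the other Rab groups was called by edgeR's test. Of the 16 Rabs of the endoplasmic reticulum and Golgi, 0 had an unadjusted p under 0.05, and DESeq2's Wald test called 0 as well. RAB1A, which acts between endoplasmic reticulum and Golgi, measured 67.6, 75.6 and 80.4 CPM in siControl and 86.0, 77.8 and 87.3 CPM in siPSF. Of the 7 early endosome Rabs, 1 had an unadjusted p under 0.05, and RAB5B, an early endosome Rab, measured 75.4, 78.0 and 79.6 CPM in siControl and 84.3, 91.9 and 84.5 CPM in siPSF without passing the test. All 7 had a log2 fold change above 0 with all 6 libraries in the count fits. Only 5 or 6 of 7 did when any library other than siPSF replicate 2 was left out. In the 2 fits on FPKM, to which no TMM factors were applied, 4 of 7 did. There the median over all genes was -0.059 and -0.065. RAB31, a Rab of the Golgi and endosomes, was called higher only when siControl replicate 1 was left out. Of the 5 Rabs of regulated secretion, RAB27A, which docks secretory granules, measured 9.19, 8.60 and 10.1 CPM in siControl and 8.66, 6.14 and 8.997 CPM in siPSF. RAB26, a Rab of secretory vesicles, measured 1.84, 2.204 and 1.83 CPM in siControl and 1.60, 1.63 and 2.57 CPM in siPSF, and the groups overlapped. RAB27B had the lowest log2 fold change of any member, -1.19, at 6 to 38 counts per library and with overlapping groups (edgeR adjusted p 0.17).

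**Figure D3:**
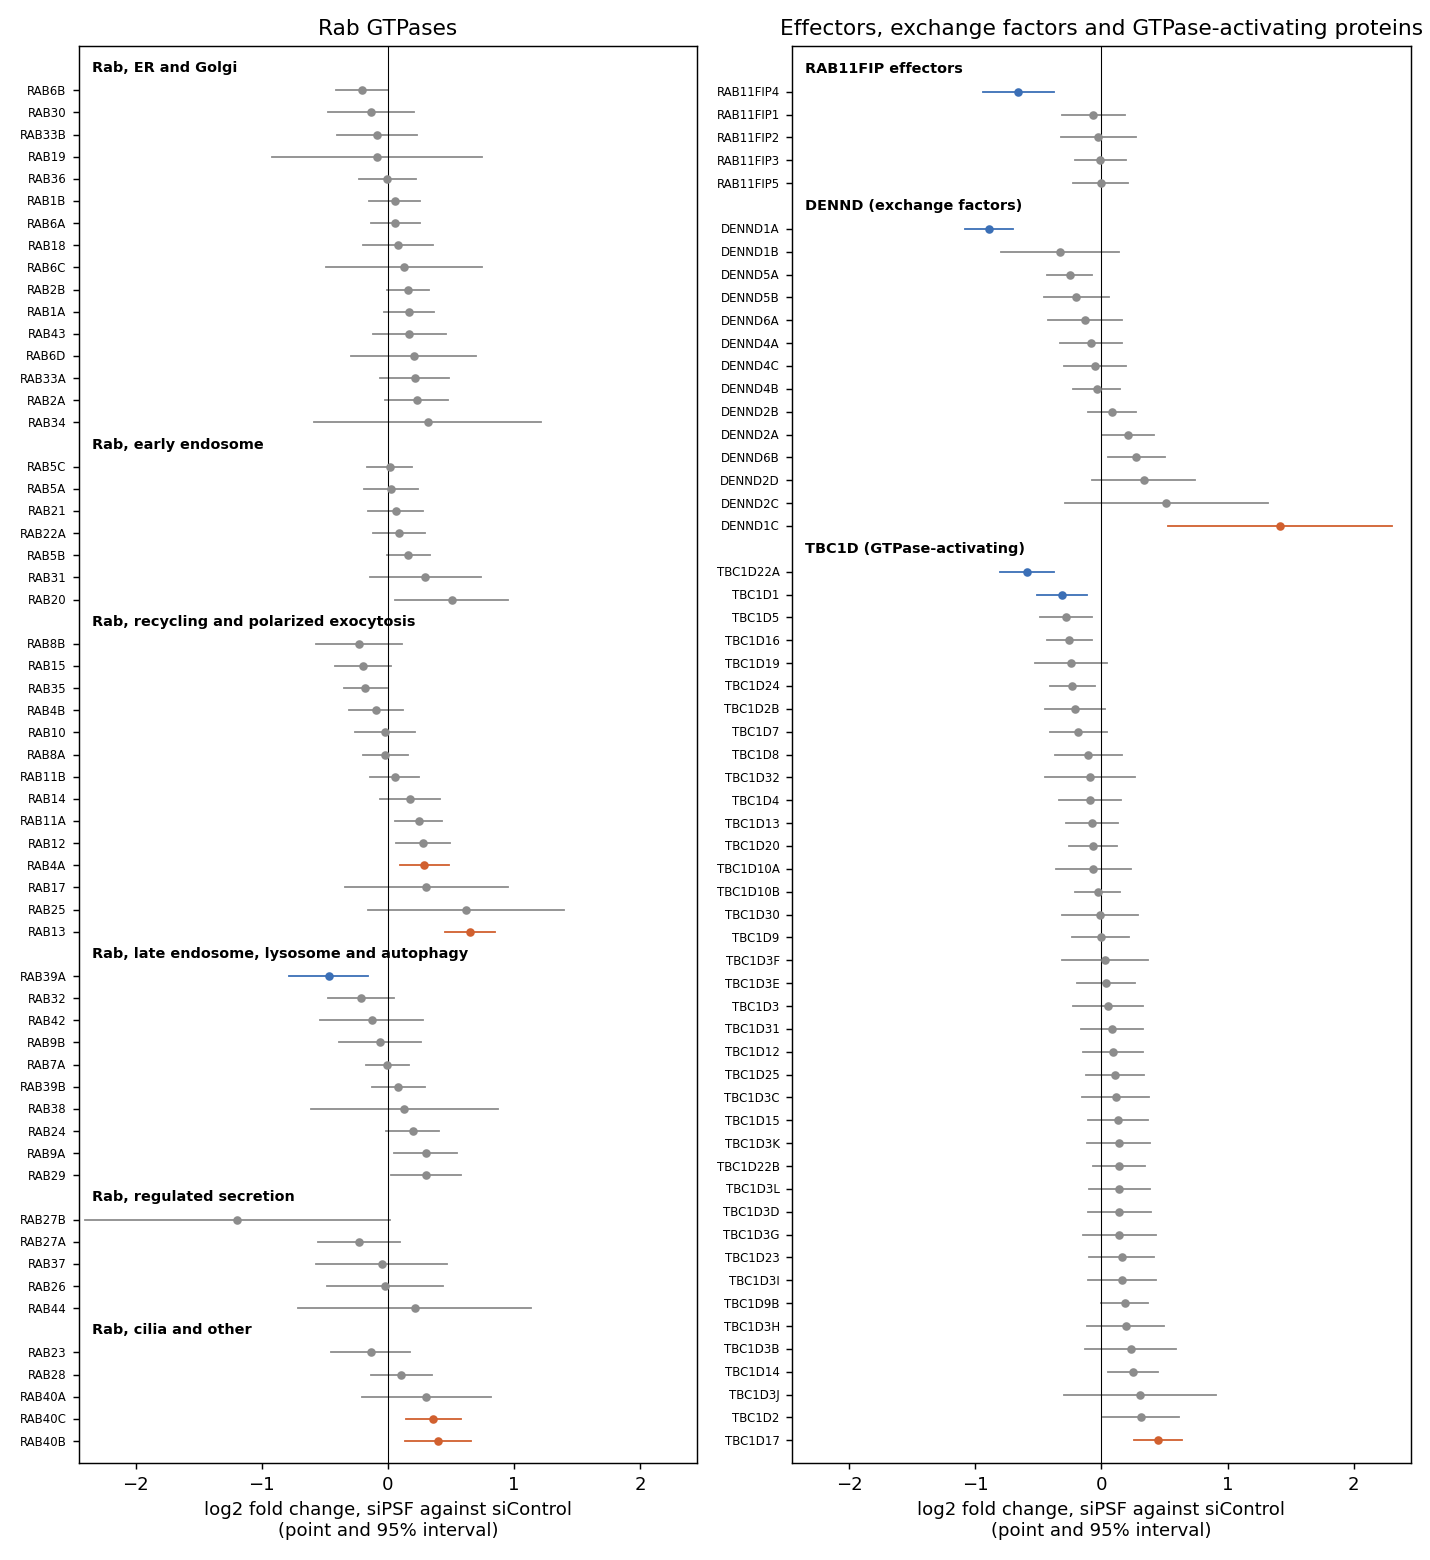
Log2 fold change of siPSF against siControl with its 95% interval for the 115 members, by role, with called lower members in blue, called higher members in orange and the others in gray. Most points lie near 0, and the wide intervals belong to genes with low counts such as RAB27B.

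Many TBC1D proteins act as GTPase-activating proteins. Of 39 TBC1D genes, 2 were lower and 1 higher, beside 8.27% and 6.65% of all genes. TBC1D22A, a Golgi-associated member of the family, lies at chr22:46762650-47175699 on the plus strand. It measured 29.7, 30.0 and 26.5 CPM in siControl and 20.4, 18.0 and 18.7 CPM in siPSF. All siPSF libraries were lower, and the log2 fold change was -0.59 (standard error 0.10, 95% interval -0.81 to -0.38, edgeR adjusted p 0.0021). Its relative TBC1D22B went from 23.4, 23.0 and 20.5 CPM to 23.9, 24.7 and 25.0 CPM, with a log2 fold change of 0.14 that did not pass the test. The log2 ratio of TBC1D22A to TBC1D22B was 0.34, 0.38 and 0.37 in siControl and -0.23, -0.46 and -0.42 in siPSF, so the order of both genes by CPM was the opposite in the 2 groups.

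TBC1D17, a GTPase-activating protein linked to autophagy and recycling, lies at chr19:49877702-49888750 on the plus strand. It measured 27.2, 27.0 and 25.1 CPM in siControl and 35.4, 35.9 and 37.1 CPM in siPSF. Every siPSF library was higher, and the log2 fold change was 0.45 (standard error 0.09, 95% interval 0.26 to 0.64, edgeR adjusted p 0.0053). It overlaps AKT1S1 on the opposite strand by 794 bases, and whether strand was used in counting is not stated. AKT1S1 had a log2 fold change of 0.06 and was not called.

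TBC1D1, which restrains glucose transporter traffic together with TBC1D4, measured 33.3, 32.1 and 32.0 CPM in siControl and 26.9, 27.4 and 24.3 CPM in siPSF. The groups did not overlap, and the log2 fold change was -0.31 (standard error 0.09, edgeR adjusted p 0.040). The call was lost when any 1 of the 6 libraries was left out, with adjusted p from 0.063 to 0.10. TBC1D4 measured 21.8, 22.04 and 27.4 CPM in siControl and 22.1, 20.8 and 24.1 CPM in siPSF, with overlapping groups.

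Other TBC1D genes of high level were TBC1D14, a regulator of recycling endosomes and autophagy, at 20.9 ± 0.415 FPKM in siControl, and TBC1D10B, which acts on RAB27 and RAB35, at 18.5 ± 0.748 FPKM. TBC1D14 measured 101, 97.3 and 99.3 CPM in siControl and 108, 113 and 133 CPM in siPSF, and its log2 fold change, 0.25, did not pass the test (edgeR adjusted p 0.083). TBC1D5, which acts with the retromer, and TBC1D16, named after their values were seen, had log2 fold changes of -0.28 and -0.25 (edgeR adjusted p 0.065 and 0.058), and in both the groups did not overlap. The 12 TBC1D3 copies are near-identical primate-specific genes, so reads are shared among them and single values are uncertain. Summed, they measured 74.1, 71.1 and 64.7 CPM in siControl and 76.0, 79.4 and 72.9 CPM in siPSF, with overlapping groups, and 0 of 12 were called by edgeR, with 0 at an unadjusted p under 0.05.

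The ratio of related members was compared in 29 pairs by an exact two-sided permutation test over the 6 libraries, whose smallest possible p is 0.10. In 7 pairs the groups did not overlap, so that p = 0.10 in the exact test and 0.41 after adjustment over the 29 pairs. Beside the 4 pairs described above, the log2 ratio was higher in siPSF by 0.26 for RAB6A to RAB6B (95% interval -0.11 to 0.63), by 0.37 for RAB9A to RAB9B (0.03 to 0.72) and by 0.53 for TBC1D2 to TBC1D2B (0.18 to 0.88). With 29 pairs adjusted together these group sizes did not allow a call. Each of the 4 pairs described above holds a called member, so those ratios are not separate from the calls. The share of non-overlap over other pairs of genes was not computed. Leaving out a library can only keep or raise the number of pairs without overlap. It was 12 without siControl replicate 3 and 11 without siPSF replicate 3.

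**Figure D4:**
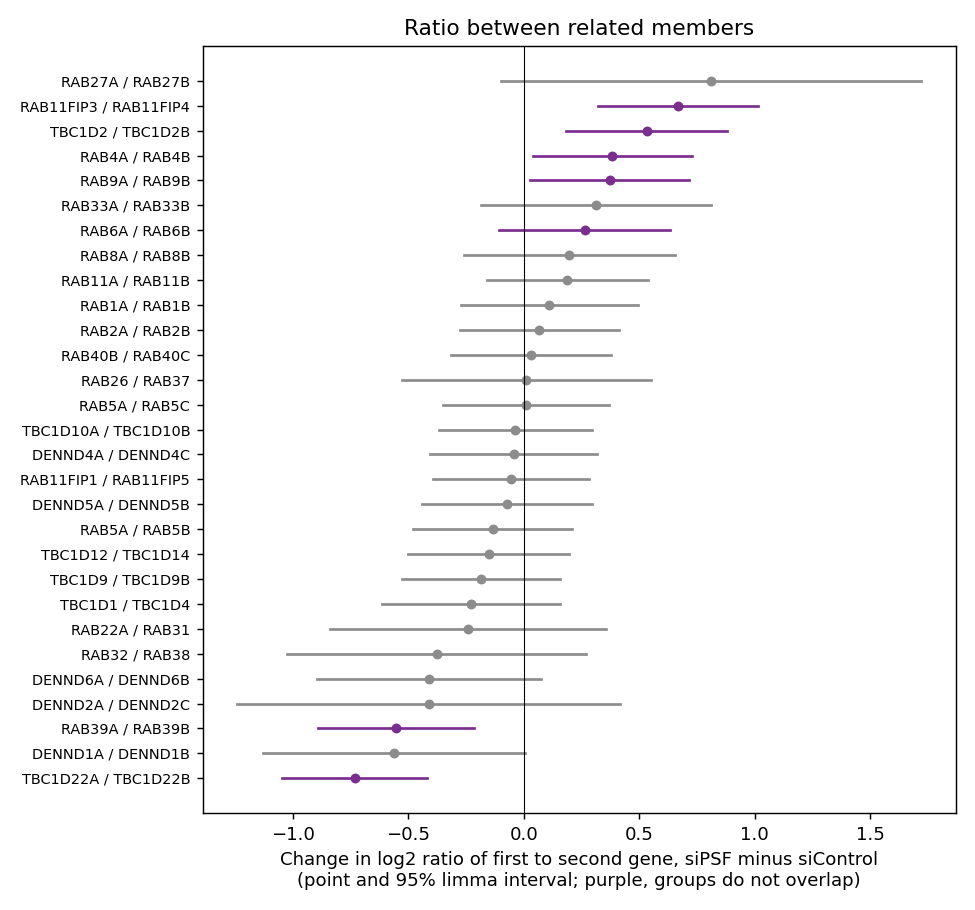
Change in the log2 ratio of the first to the second gene of 29 pairs, siPSF minus siControl, with the 95% limma interval, in purple where the groups do not overlap. The largest changes among the purple pairs are those of TBC1D22A to TBC1D22B (-0.73) and RAB11FIP3 to RAB11FIP4 (0.67).

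Called members that fell were mostly long genes, and those that rose were not. DENND1A spans 550 kb, TBC1D22A 413 kb, TBC1D1 248 kb, RAB11FIP4 147 kb and RAB39A 35.0 kb. The 6 that rose span 9.06 to 43.7 kb. Of 28 members of 100 kb or more, 4 (14.3%) were lower, against 25.1% of protein-coding genes of that length, and of 10 members of 200 kb or more 3 (30.0%) were lower, against 37.4%. Of 34 members under 20 kb, 3 (8.82%) were higher and 0 were lower, against 9.35% and 3.13% of protein-coding genes. Over the 115 members the log2 fold change had a Pearson correlation of -0.44 and a Spearman correlation of -0.42 with log10 gene length. Over 14418 protein-coding genes the values were -0.32 and -0.30, and all points share the same 6 libraries.

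**Figure D5:**
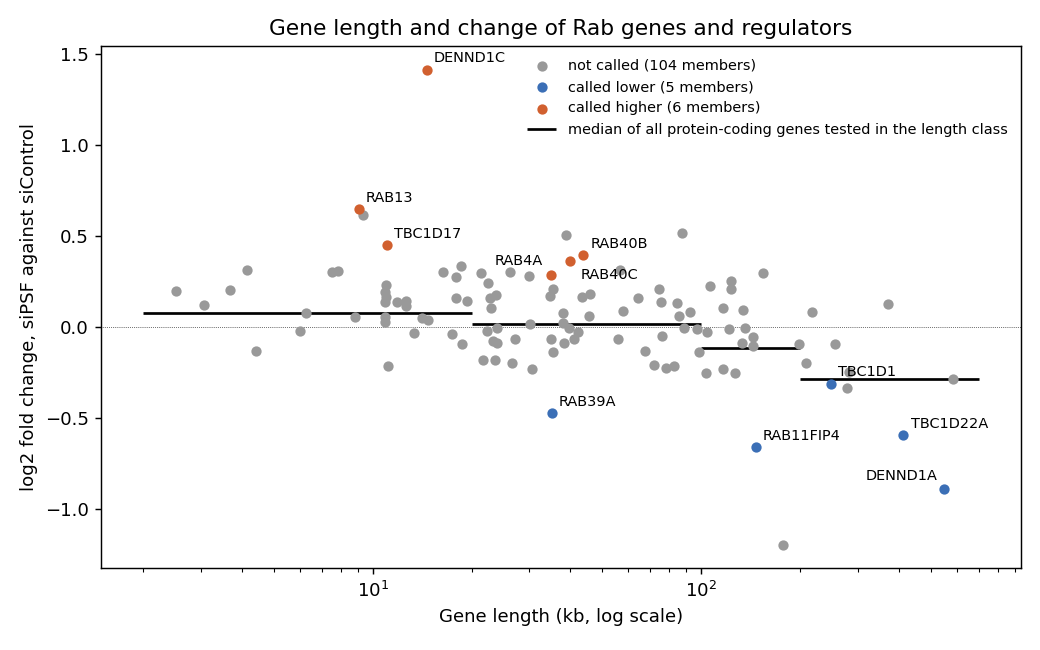
Log2 fold change against gene length (log axis) for the 115 members, called lower in blue, called higher in orange, others in gray, with black lines for the median of all protein-coding genes tested in 4 length classes. The median falls from 0.08 under 20 kb to -0.29 at 200 kb or more. Of members of 200 kb or more 8 of 10 lie below 0, as do 904 of 1133 protein-coding genes of that length.

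Promoter windows of RefSeq (GRCh38.p14, 250 bases before to 50 after the start) were found for 92 members, 9 of them called. Both strands were searched for the GC box GGGCGG, the E-box CACGTG and the CCAAT box CCAAT, and no match of 1 motif shared bases with a match of another in the windows printed, though 2 GC boxes of DENND1A share 1 base. A GC box stood in 70.7% of the members' windows and 69.1% of all protein-coding windows, and a CCAAT box in 20.7% and 36.1%. Both member shares count the near-identical TBC1D3 copies as separate windows and were not computed without them. CACGTG stood in 23.9% against 10.0%, but 10 of those 22 windows belong to TBC1D3 copies, and without the copies 12 of 82 windows held it. RAB4A was the only called member with CACGTG. The 250 bases before the start are shown for the called members with the largest fall and the largest rise among those of at least 1 CPM and for RAB4A, with GC boxes and the E-box in capitals (chr9:123930127-123930376 minus, chr1:153986340-153986589 minus and chr1:229270861-229271110 plus). In RAB13 the window lies inside the RefSeq gene span and not at its outer end.
DENND1A: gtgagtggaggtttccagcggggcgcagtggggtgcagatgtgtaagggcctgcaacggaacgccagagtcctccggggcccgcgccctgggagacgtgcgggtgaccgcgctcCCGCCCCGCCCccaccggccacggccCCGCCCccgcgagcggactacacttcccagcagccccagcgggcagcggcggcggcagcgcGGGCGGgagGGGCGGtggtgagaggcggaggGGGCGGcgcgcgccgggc
RAB13: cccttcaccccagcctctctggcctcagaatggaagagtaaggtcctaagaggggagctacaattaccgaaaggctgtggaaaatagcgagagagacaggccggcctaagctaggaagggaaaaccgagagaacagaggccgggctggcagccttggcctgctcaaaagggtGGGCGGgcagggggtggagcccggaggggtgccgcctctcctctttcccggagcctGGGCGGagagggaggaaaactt
RAB4A: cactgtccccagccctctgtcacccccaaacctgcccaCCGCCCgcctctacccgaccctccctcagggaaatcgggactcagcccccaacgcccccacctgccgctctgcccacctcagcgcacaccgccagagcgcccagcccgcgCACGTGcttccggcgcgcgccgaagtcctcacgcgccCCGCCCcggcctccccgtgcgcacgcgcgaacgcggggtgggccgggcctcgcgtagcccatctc
DENND1A held 6 GC boxes and 33 CG pairs in these bases, RAB13 2 and 10, and RAB4A 2 and 31.

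The remaining Rab machinery, listed by function, was tested in 105 genes, of which 12 (11.4%) were lower and 5 (4.76%) higher, against 8.27% and 6.65% of all genes. The 17 calls are 16.2% of these genes, against 14.9% of all genes, and this list is described by its counts only. The 17 calls became 8 without siControl replicate 2, 9 without siControl replicate 3 and 11 without siPSF replicate 1. BICD1, a dynein adaptor of RAB6 vesicles, fell (19.4, 21.7 and 25.2 CPM in siControl and 10.9, 10.3 and 10.2 CPM in siPSF, log2 fold change -1.07). So did TRAPPC9, a tethering complex subunit counted here with the exchange factors (-1.01). SYTL2, an effector of RAB27 (-1.43), and ERC1, a scaffold of exocytosis (-0.40), fell too. RIN1, an exchange factor for RAB5, rose (8.66, 7.19 and 6.82 CPM to 13.3, 14.4 and 12.2 CPM, log2 fold change 0.81). GDI2, which extracts Rabs from membranes (0.39), RABGGTB, a subunit of the enzyme that prenylates Rabs (0.42), and USO1, a Golgi tether (0.38), rose too. BICD1, TRAPPC9, RIN1 and GDI2 were called under all 13 other ways of processing. ERC1 was called in 12 of them, RABGGTB in 11 and USO1 in 8 (main edgeR adjusted p 0.014, 0.012 and 0.019). SYTL2, not tested in the fits on FPKM, was called in 11. Of 38 listed exchange factors outside the members 4 were lower and 1 higher, and of 48 effectors and tethers 7 and 2. Of 11 GTPase-activating proteins 1 was lower and 0 higher, and of 8 prenylation and GDI genes 0 and 2.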

How the data were processed

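SH-SY5Y cells treated with siControl or siPSF were analysed as 3 libraries per group, with groups from the sample titles. The authors deposited 1 table that holds, for each gene in each library, a read count and an FPKM value. For the counts, per the paper's methods, the authors selected poly(A) RNA, removed rRNA reads, mapped to hg38 and counted on RefSeq genes. The submitters' processing notes name Trimmomatic, HISAT2 2.1.0, StringTie 2.1.3b and GRCh38, which differs from the mapper in the paper, and the kit in the labels is stranded while that in the paper is not described so. FPKM is the authors' own scaling of reads by length and depth, and no TMM factors were applied to it. FPKM per count varied between libraries by over 5% in 15 of the 97 members with at least 200 counts in every library. The smallest count is 1, so genes without reads in a library are not analysed here.

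Genes were filtered with filterByExpr, scaled by TMM and tested with edgeR 4.0.16's quasi-likelihood test (R 4.3.3), without a replicate block, on 19694 genes with Benjamini-Hochberg adjustment, and called at an adjusted p under 0.05. The code was tested on simulated data. The common biological coefficient of variation was 12.6%. Replicate libraries differed by more than sampling noise (chi-square per degree of freedom of 20.8 or more). Alternatives were DESeq2 1.42.0 size factors and Wald test, no filter, a mean of at least 1 CPM, a replicate block, leaving out each library, and limma 3.58.1 on log2(FPKM + 0.5) or log2(FPKM + 0.1) with a mean of at least 0.5. Pair intervals came from limma on log2 ratios. Gene positions are RefSeq GRCh38.p14. Not every overlapping gene is reported here. The members and lists were chosen with earlier results of these data known, and RAB6D and TBC1D3J were added to the role lists after the table was seen. Genes are named where they were called, where they had the highest or next highest siControl FPKM in their list, or where they were the partner of a called member. Outside the members, SFPQ and up to 4 called genes of the other lists in each direction were named. Others were chosen after their values were seen.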

Additional observations from a re-analysis of the deposited data

How the results depend on the processing

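The number of members called, 11 in the report, was 7 without a filter on low counts and 5 to 10 when a library was left out. The number higher, 6 in the report, was 3 without a filter, 2 with limma on log2(FPKM + 0.5), 2 on log2(FPKM + 0.1) and 2 to 6 when a library was left out. The number lower, 5 in the report, was 8 with DESeq2's Wald test, 8 with limma on log2(FPKM + 0.5) and 3 to 5 when a library was left out. The members' median log2 fold change, 0.05 in the report, was -0.035 with limma on log2(FPKM + 0.5) and -0.041 on log2(FPKM + 0.1), where the median over all genes was -0.059 and -0.065. Other Rab machinery numbered 8 to 21 and non-overlapping pairs 7 to 12 when a library was left out. The number of such pairs can only stay or rise when a library is left out. Calls over all genes split into 717 higher and 1700 lower with limma on log2(FPKM + 0.5), against 1310 and 1628 in the report. No TMM factors were applied to FPKM. In the main count fit these factors were 1.02, 1.01 and 1.05 in siControl and 0.985, 0.964 and 0.971 in siPSF. Apart from what fewer libraries or genes tested do by construction, the cause was not tested.

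Uncalled genes near 0 changed sign: RAB26 was -0.28 to 0.097 with a library left out, DENND4B was -0.092 to 0.0078 with a library left out, RAB11FIP3 was -0.070 to 0.041 with a library left out, TBC1D10B was -0.075 to 0.00038 with a library left out, RAB7A was -0.031 to 0.018 with a library left out, RAB11B was -0.019 to 0.10 with a library left out and -0.024 and -0.024 on FPKM, RAB10 was -0.12 to 0.074 with a library left out, RAB1B was -0.024 to 0.12 with a library left out and -0.024 and -0.024 on FPKM, RAB5C was -0.015 to 0.054 with a library left out and -0.062 and -0.062 on FPKM, TBC1D4 was -0.15 to 0.021 with a library left out. With a replicate block 11 members were called, 8 of them as in the report. DENND5A, RAB11A and TBC1D16 were gained and RAB39A, RAB40C and DENND1C lost. The deviations of same-numbered libraries correlated at -0.02, 0.04 and 0.05, and not every library correlated best with its own number, so the numbers were not taken to pair the libraries. DENND1C could be tested in 10 of 13 alternatives. Members of under 1 CPM, 12 in all, rest on few counts and their values are uncertain. How much of their spread is counting noise was not tested.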
